A study of Mus musculus with 6 samples.

Results

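The genes described are 6 subunits of the phagocyte NADPH oxidase, Cybb, Cyba, Ncf1, Ncf4, Rac1 and Rac2, taken by symbol from a deposited expression table of 53677 genes, in which each symbol occurs once. Poly(A) RNA came from short-term hematopoietic stem cells (ST-HSC), multipotent progenitors of limited self-renewal, sorted from C57BL/6J mouse bone marrow as lineage-negative, Kit-positive, CD48-positive, CD150-negative cells. In 3 libraries the mice carried dnTCF4, a TCF4 transcription factor made dominant-negative (genotype label dnTCF4+/+), and 3 libraries came from wild-type mice (WT, genotype label dnTCF4-/-). The comparison asked how the transcriptome differs when TCF4 activity is blocked. The labels used here give neither the animals' age nor the promoter that drives the transgene. The series describes 3 mice of each genotype, so each library was taken as 1 animal.

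The phagocyte oxidase passes electrons from NADPH to oxygen and makes superoxide, with which neutrophils and macrophages kill microbes. Its catalytic core, flavocytochrome b558, sits in the membrane, and a set of cytosolic proteins and a Rac GTPase join it when the cell is activated. Loss of a core or cytosolic subunit causes chronic granulomatous disease in humans. In the myeloid lineage some of the subunit genes, such as Cybb, are known to be switched on as progenitors mature. In sorted progenitors the RNA of such genes can come from the progenitors or from more mature cells in the sort.

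Libraries held 57384596 to 110895166 counted reads in dnTCF4 and 61766351 to 67707181 in WT, as recovered from the RPKM steps. The RNAs of Cd48, Kit and Slamf1 fitted the CD48, Kit and CD150 terms of the gate. Cd48 lay at 999.8 to 1415 RPKM (read counts scaled to gene length and library size) in dnTCF4 and 813.4 to 994.3 RPKM in WT. Kit lay at 35.5 to 97.1 and 47.3 to 83.7 RPKM, and Slamf1, which encodes CD150, at 0.744 to 1.18 and 0.792 to 1.15 RPKM. Lineage markers varied widely despite the lineage-negative term. Over the 6 libraries Pax5 lay at 0 to 0.0466 RPKM, Cd79b at 90.7 to 125.3 RPKM and S100a8 at 232.4 to 2948 RPKM. Immunoglobulin genes took 0.732% to 1.55% of counted reads in dnTCF4 and 7.22% to 14.8% in WT. Ddx3y, a gene of the Y chromosome, was at 24.8 RPKM in dnTCF4 replicate 1 and 30.5 RPKM in WT replicate 1 and was listed at 0 in the other 4 libraries. Xist, an RNA of female cells, was at 0.0380 and 0.0167 RPKM in dnTCF4 and WT replicate 1 and at 22.8 to 71.9 RPKM in the other 4. The sexes thus matched between genotypes by replicate number. The third dnTCF4 library stood apart by base composition. Among expressed genes (5 RPKM or more on average), the 605 with the highest GC content in their longest transcript (55.6% to 83.3%) had a median of -0.70 in dnTCF4 replicate 3 relative to the mean of dnTCF4 replicates 1 and 2, on the log2(RPKM + 1) scale, and the 605 with the lowest (27.5% to 40.5%) had a median of 0.24.

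Each of the 6 genes averaged 1 RPKM or more and was tested. In limma across 11326 genes, 0 of the 6 passed an adjusted p of 0.05, where 0.3% of all tested genes did (0.0441% with higher and 0.256% with lower values in dnTCF4). With replicate number as a block it was 0 of 6, against 0.433%, and after a correction for GC content 0 of 6, against 0.296%. Their values lay without overlap above WT in 1 of 6 (Cybb), against 15.4% of tested genes, and below WT in 0 of 6, against 2.26%. At an unadjusted p under 0.05, 1 of 6 (Cybb) was reached, against 9.62% of tested genes. Voom on recovered reads also called 0 of the 4 subunit genes it could test. The log2 fold changes of the 6, dnTCF4 minus WT, had a median of -0.03, against 0.14 for all genes tested.

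The subunits differed widely in level. Per length, and averaged over the 6 libraries, Rac2 stood at 443.1 RPKM, Cyba at 221.4, Ncf4 at 73.0, Cybb at 17.6, Rac1 at 7.30 and Ncf1 at 5.61. The lowest Rac2 value, 208.8 RPKM, was below the highest Cyba value, 366.2 RPKM, and the ranges of Cyba and Ncf4, of Ncf4 and Cybb, of Cybb and Rac1 and of Rac1 and Ncf1 met as well, so over the 6 libraries no neighbours in this order had separate ranges. In WT alone, the 3 values of each gene lay apart from those of the next in the order, except for Rac1 and Ncf1. Rac2 exceeded the mean of 98.5% of tested genes and Ncf1 that of 48.9%.

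**Figure D1:**
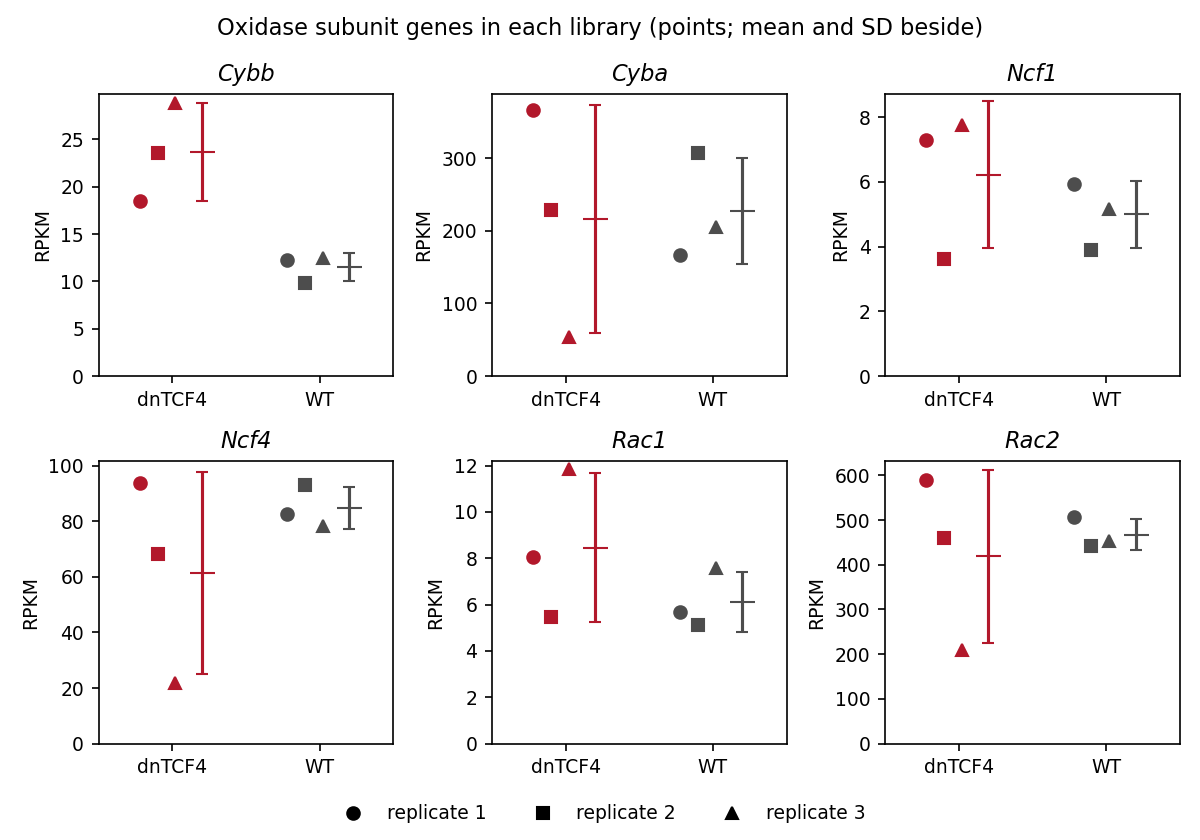
RPKM of each subunit gene (vertical axes, each from 0) in the 3 dnTCF4 and 3 WT libraries; symbols give the replicate number and the bar beside them the mean and SD. Cybb is the gene whose 3 dnTCF4 values (18.5 to 28.9 RPKM) all lie above the WT values (9.83 to 12.5 RPKM), while dnTCF4 replicate 3 is lowest of the 6 libraries for Cyba, Ncf4 and Rac2.

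The membrane core consists of a catalytic and a stabilizing chain. Cybb encodes the catalytic chain gp91phox, also called NOX2, which carries the heme and flavin groups that pass the electrons. The gene lies on chromosome X (GRCm38, 9435252 to 9487771, minus strand). Cyba encodes p22phox, the partner without which gp91phox is not stable in the membrane. It lies on chromosome 8 (GRCm38, 122424776 to 122432930, minus strand). The pair differ in base composition, with 42.4% GC in the longest transcript of Cybb and 59.3% in that of Cyba. The first 120 coding bases of each (GENCODE M21 transcripts, 5′ to 3′), with G and C in capitals, show this, at 43.3% and 60.8% GC.
Cybb: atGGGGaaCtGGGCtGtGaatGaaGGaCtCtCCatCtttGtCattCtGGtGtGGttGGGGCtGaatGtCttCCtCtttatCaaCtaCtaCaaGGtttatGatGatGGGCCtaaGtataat
Cyba: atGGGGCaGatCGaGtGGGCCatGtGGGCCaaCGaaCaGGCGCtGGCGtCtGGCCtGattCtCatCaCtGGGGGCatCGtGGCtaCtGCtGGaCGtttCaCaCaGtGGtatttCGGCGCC

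Cybb stood at 18.5, 23.6 and 28.9 RPKM in dnTCF4 replicates 1, 2 and 3, against 12.3, 9.83 and 12.5 RPKM in WT replicates 1, 2 and 3. The groups did not overlap, and the ratio of dnTCF4 to WT was 1.51, 2.40 and 2.32 between libraries numbered 1, 2 and 3. These values rested on 6775 to 15189 recovered reads in dnTCF4 and 3526 to 4903 in WT. The means were 23.7 ± 5.20 RPKM in dnTCF4 and 11.5 ± 1.47 RPKM in WT (SD, n = 3 each), a ratio of 2.05. The log2 fold change was 0.96 (SE 0.21, 95% interval 0.46 to 1.47), and with an adjusted p of 0.18 in limma it did not pass over all genes. Cybb is on chromosome X, and the smallest of the 3 ratios was that between the libraries numbered 1, which held Y-linked reads. The part of sex in the Cybb values was not tested. With replicates 2 and 3 of both genotypes only, the log2 fold change was 1.17 (limma adjusted p = 0.44). Without dnTCF4 replicate 3 it was 0.81, and after a correction for GC content 0.79.

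Cyba stood at 366.2, 228.9 and 53.9 RPKM in dnTCF4 replicates 1, 2 and 3, against 166.4, 307.6 and 205.5 RPKM in WT replicates 1, 2 and 3. The dnTCF4 group held both the highest and the lowest of the 6 values, and the groups overlapped. The low value came from 3216 recovered reads, against 10980 or more in the other libraries. The means were 216.3 ± 156 RPKM in dnTCF4 and 226.5 ± 72.9 RPKM in WT (SD, n = 3 each), with a log2 fold change of -0.40 (SE 0.66, 95% interval -1.95 to 1.15, limma adjusted p = 0.80). Without dnTCF4 replicate 3 the sign turned, to 0.40 (95% interval -0.36 to 1.17, limma adjusted p = 0.89).

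The balance of the core's RNAs, as read in RPKM, varied between libraries. The ratio of Cyba to Cybb RPKM does not depend on the scaling of a library, but the genes differ in GC content (59.3% and 42.4%). The ratio was 19.8, 9.71 and 1.87 in dnTCF4 replicates 1, 2 and 3, against 13.6, 31.3 and 16.5 in WT replicates 1, 2 and 3. Every library held more Cyba than Cybb per length. The means were 10.5 ± 8.99 in dnTCF4 and 20.4 ± 9.51 in WT (SD, n = 3 each), and the groups overlapped. The libraries with the lowest and highest ratio, dnTCF4 replicate 3 and WT replicate 2, also differed by base composition. Expressed genes of 55.6% to 83.3% GC had median centred log2(RPKM + 1) values of -0.54 and 0.27 in them. Those of 40.5% to 42.9% GC had medians of 0.25 and -0.15 there. The part of GC content in the ratio was not tested.

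The 250 bases upstream of the RefSeq start of Cybb (GRCm38.p6, chrX:9469325-9469574, minus strand, 34.0% GC) are shown because Cybb is the subunit gene whose groups did not overlap, and those of Ncf1 (chr5:134229626-134229875, minus strand, 54.4% GC) for comparison. Capitals mark matches on either strand to a 10-base pattern of GAAA, 2 bases of any kind and GAAA, which factors of the interferon regulatory (IRF) family recognise. The RefSeq table matched 3 of the 6 genes, Cybb, Cyba and Ncf1.
Cybb: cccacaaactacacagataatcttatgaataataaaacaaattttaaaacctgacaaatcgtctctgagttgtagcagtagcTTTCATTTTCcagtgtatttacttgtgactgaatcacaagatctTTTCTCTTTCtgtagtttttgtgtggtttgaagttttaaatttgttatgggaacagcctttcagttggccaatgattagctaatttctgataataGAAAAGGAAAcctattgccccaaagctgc
Ncf1: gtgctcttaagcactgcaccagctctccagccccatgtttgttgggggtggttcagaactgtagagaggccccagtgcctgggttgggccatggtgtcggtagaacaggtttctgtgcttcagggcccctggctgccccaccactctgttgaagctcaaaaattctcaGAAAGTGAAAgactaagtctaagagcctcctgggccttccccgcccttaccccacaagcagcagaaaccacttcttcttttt

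Cybb had 3 matches, which begin at -168, -124 and -29 from the start, and Ncf1 had 1, at -82. The Cyba window had 0. Of 32851 RefSeq promoter windows of this length, 2.98% held at least 1 match and 0.0122% (4 windows, that of Cybb included) held 3 or more. These windows were of any GC content and were not matched to the 34.0% GC of the Cybb window. GAGGAAG and AGAGGAA, a pair of overlapping forms of the site of the ETS factor PU.1, were in none of the 3 windows and in 10.6% and 8.55% of all windows. TTNNGNAA, a C/EBP-type site, was in none of the 3 and in 36.8% of all. Other forms of the PU.1 and C/EBP sites were not searched for, so these absences are of the listed letters alone. These are matches of letters in short windows and say nothing of binding.

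The cytosolic subunits form a complex that moves to the membrane on activation. Ncf1 encodes p47phox, the organizer whose phosphorylation exposes the domains that dock on p22phox. It lies on chromosome 5 (GRCm38, 134220053 to 134229625, minus strand), and 11.1% of its exonic bases are shared with exons of Gtf2ird2 on the other strand. The kits used do not mark strand, so reads there cannot be told apart. Ncf1 stood at 7.30, 3.63 and 7.75 RPKM in dnTCF4 replicates 1, 2 and 3, against 5.94, 3.90 and 5.16 RPKM in WT replicates 1, 2 and 3. The groups overlapped, and dnTCF4 replicate 2 was the lowest of the 6 libraries. The means were 6.22 ± 2.26 RPKM in dnTCF4 and 5.002 ± 1.03 RPKM in WT (SD, n = 3 each), with a log2 fold change of 0.23 (SE 0.29, limma adjusted p = 0.76).

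Ncf4 encodes p40phox, which binds the phagosome lipid phosphatidylinositol 3-phosphate and holds the complex there. It lies on chromosome 15 (GRCm38, 78244801 to 78262580, plus strand), with 55.7% GC in its longest transcript. Ncf4 stood at 93.9, 68.3 and 21.97 RPKM in dnTCF4 replicates 1, 2 and 3, against 82.6, 92.9 and 78.3 RPKM in WT replicates 1, 2 and 3. The dnTCF4 libraries spanned the WT range, with replicate 1 above all WT libraries and replicates 2 and 3 below them. The means were 61.4 ± 36.5 RPKM in dnTCF4 and 84.6 ± 7.51 RPKM in WT (SD, n = 3 each), with a log2 fold change of -0.68 (SE 0.49, 95% interval -1.83 to 0.46, limma adjusted p = 0.69). Without dnTCF4 replicate 3 it was -0.07 (95% interval -0.52 to 0.37, limma adjusted p = 1.0). In every library Ncf4 exceeded Ncf1 per length, by 12.9-fold, 18.8-fold and 2.83-fold in dnTCF4 replicates 1, 2 and 3 and by 13.9-fold, 23.8-fold and 15.2-fold in WT replicates 1, 2 and 3.

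Rac GTPases, once loaded with GTP, complete the active oxidase. Rac2 is the form specific to blood cells and Rac1 the form found in most cell types. Rac2 lies on chromosome 15 (GRCm38, 78559167 to 78572783, minus strand), 0.3 megabases from Ncf4, and 122 bases of its transcripts match a Sirt5 transcript at 97.5% identity. Rac2 stood at 588.4, 459.2 and 208.8 RPKM in dnTCF4 replicates 1, 2 and 3, against 507.1, 441.5 and 453.7 RPKM in WT replicates 1, 2 and 3. As for Cyba and Ncf4, dnTCF4 replicate 1 was the highest and replicate 3 the lowest of the 6 libraries. The means were 418.8 ± 193 RPKM in dnTCF4 and 467.4 ± 34.9 RPKM in WT (SD, n = 3 each), with a log2 fold change of -0.28 (SE 0.37, limma adjusted p = 0.76). Without dnTCF4 replicate 3 the sign turned, to 0.16 (95% interval -0.24 to 0.56, limma adjusted p = 0.94).

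Rac1 lies on chromosome 5 (GRCm38, 143503634 to 143528036, minus strand), and 51.4% of its exonic bases overlap exons of Daglb on the other strand. If reads in the shared bases were left uncounted as ambiguous, its RPKM would be too low. Rac1 stood at 8.05, 5.49 and 11.9 RPKM in dnTCF4 replicates 1, 2 and 3, against 5.69, 5.11 and 7.58 RPKM in WT replicates 1, 2 and 3. The ratio of dnTCF4 to WT was 1.41, 1.07 and 1.56 between libraries numbered 1, 2 and 3, although the groups overlapped. The means were 8.46 ± 3.20 RPKM in dnTCF4 and 6.13 ± 1.29 RPKM in WT (SD, n = 3 each), with a log2 fold change of 0.37 (SE 0.28, limma adjusted p = 0.70). It was 0.12 without dnTCF4 replicate 3.

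Rac2 made up nearly all of the summed Rac1 and Rac2 RPKM. Its share was 98.7%, 98.8% and 94.6% in dnTCF4 replicates 1, 2 and 3, against 98.9%, 98.9% and 98.4% in WT replicates 1, 2 and 3. With Rac1 rescaled to its unshared exonic bases, the share of Rac2 was 89.5% to 97.6% in dnTCF4 and 96.7% to 97.7% in WT. The blood cell form was thus the larger part in each library under either Rac1 length. The length of Rac2 was not varied, and Rac2 gave no whole reads with its annotated length.

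**Figure D2:**
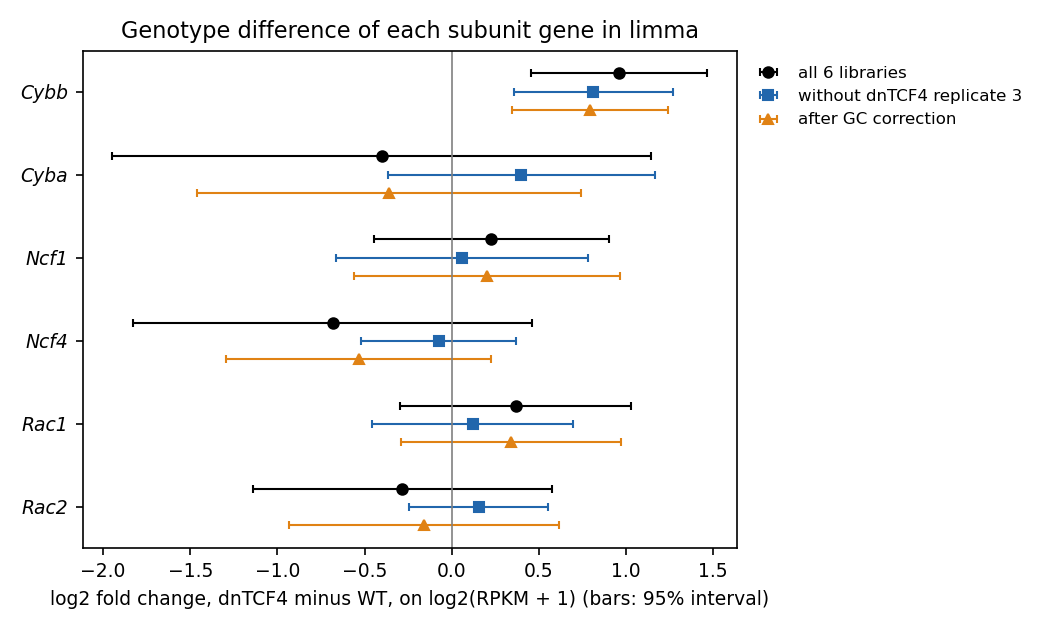
Log2 fold change of each subunit gene (dnTCF4 minus WT, horizontal axis, on log2(RPKM + 1)) with its 95% interval from limma, for all 6 libraries, without dnTCF4 replicate 3, and after GC correction. The Cybb interval lies above 0 in the 3 fits (unadjusted for the number of genes), and those of the other 5 genes include 0.

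Cyba, Ncf4 and Rac2 each had their lowest value in dnTCF4 replicate 3. On the log2(RPKM + 1) scale, dnTCF4 replicate 3 lay below the mean of dnTCF4 replicates 1 and 2 by a difference of -2.40 for Cyba, -1.82 for Ncf4 and -1.31 for Rac2, and above it by 0.45 for Cybb, 0.50 for Ncf1 and 0.75 for Rac1. The library with the lowest of the 6 values was dnTCF4 replicate 3 for 3 of 6 subunit genes, against 24.3% of all tested genes. Transcript GC content was 59.3% in Cyba, 55.7% in Ncf4, 52.8% in Rac2, 53.4% in Ncf1, 48.3% in Rac1 and 42.4% in Cybb. Cyba and Ncf4, highest in GC content, were low in that library, as was Rac2, and Ncf1, between Rac2 and Ncf4 in GC content, was not. After correction for GC content and level, the difference of dnTCF4 replicate 3 from the other dnTCF4 libraries was -1.69 for Cyba, -1.10 for Ncf4 and -1.17 for Rac2. It was 0.39 for Cybb, 0.72 for Ncf1 and 0.77 for Rac1. The part of GC content in these differences was not tested.

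**Figure D3:**
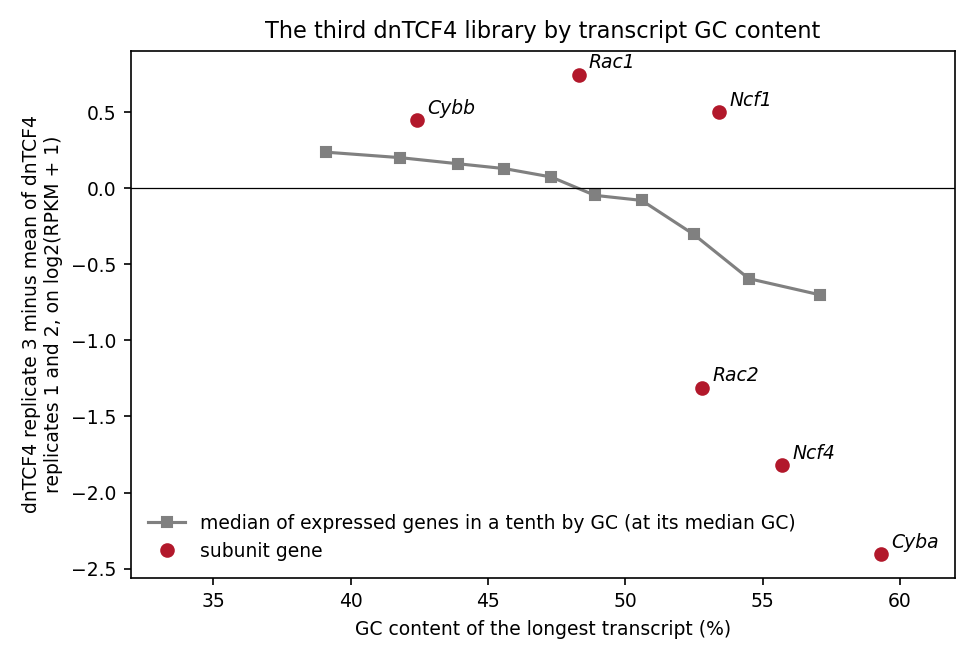
Difference of dnTCF4 replicate 3 from the mean of dnTCF4 replicates 1 and 2 on the log2(RPKM + 1) scale (vertical axis) against the GC content of the longest transcript (horizontal axis, percent), for the 6 subunit genes and for the median of expressed genes in 10 equal groups by GC content. The medians run from 0.24 at low GC to -0.70 at high GC; Cyba, Ncf4 and Rac2 lie below that line and Cybb, Rac1 and Ncf1 above it.

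Profiles most like those of the subunits were sought among the other 5326 protein-coding genes at 5 RPKM or more on average, by the root mean square difference of centred log2(RPKM + 1) values over the 6 libraries. For Cybb they were Fmo5 (difference 0.12) and Trim12c (0.14), with Fmo5 at 7.30 to 9.81 RPKM in dnTCF4 and 4.09 to 4.85 RPKM in WT. For Rac1 they were Maf1 (0.05) and Tprgl (0.05), and for Ncf1 Hilpda (0.12) and Mrfap1 (0.13). For Cyba they were Pop7 and Zfp414 (0.13 and 0.14), for Ncf4 Ftl1-ps1, named as a copy of Ftl1 whose reads it may share, and Cuedc2 (0.08 and 0.09), and for Rac2 1600014C10Rik and Capg (0.07 and 0.08). All 6 genes of the last group were lowest in dnTCF4 replicate 3, as Capg was at 113.0, 95.5 and 40.15 RPKM in dnTCF4 replicates 1, 2 and 3, against 90.9, 91.6 and 93.8 RPKM in WT replicates 1, 2 and 3. All 6 were picked for likeness to subunits that are lowest in that library, so their low values there follow from the choice. Between subunits the nearest profiles differed by 0.40 for Cybb and Rac1, 0.32 for Cyba and Ncf4, 0.29 for Ncf4 and Rac2 and 0.22 for Ncf1 and Rac1. A minimum over 5326 genes tends to be smaller than one over the few subunits, so the 2 kinds of difference cannot be compared.

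Other parts of the oxidase system gave no call. Of a list of 12 further NOX family genes and partners, 11 were in the table under the symbol used and 2 were tested. Hvcn1, the proton channel that balances the charge moved by the oxidase, stood at 9.03, 8.83 and 1.86 RPKM in dnTCF4 replicates 1, 2 and 3, against 8.56, 5.47 and 4.23 RPKM in WT replicates 1, 2 and 3, with dnTCF4 replicate 3 lowest (log2 fold change -0.07, limma adjusted p = 0.96; 0.53 without that library). The other catalytic homologues were near the floor, with Nox3 and Duox2 listed at 0 in all 6 libraries and Nox1, Nox4 and Duox1 under 1 RPKM in all of them, so Cybb was the NOX family catalytic gene read at more than 1 RPKM.

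Kinases that phosphorylate the cytosolic subunits or act upstream of that step numbered 12, of which 9 were tested and 0 passed in either direction (median log2 fold change 0.25, against 0.14 for all genes tested). Pak2, a kinase activated by Rac, averaged 13.05 ± 2.32 and 10.1 ± 1.45 RPKM, and Mapk14, the p38 kinase, 26.4 ± 1.85 and 22.2 ± 2.87 RPKM, in dnTCF4 and WT (SD, n = 3 each). The values of Pak2 and Mapk14 did not overlap between groups, 2 of the 9 tested, against 15.4% of all tested genes above WT.

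Of 20 regulators of Rac and related GTPases, 16 were tested and 0 passed in either direction, with a median log2 fold change of 0.13, the level of all genes tested. Dock2, the main exchange factor that loads Rac in blood cells, averaged 37.2 ± 8.98 RPKM in dnTCF4 and 28.8 ± 2.89 RPKM in WT, and Arhgap15, which switches Rac off, 67.0 ± 16.8 and 51.2 ± 2.86 RPKM. Cdc42, a GTPase close to Rac, averaged 628.7 ± 56.7 and 531.5 ± 49.6 RPKM (SD, n = 3 each). The groups overlapped for each of these 3 genes.

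Of 14 transcription factors and coactivators known to act on oxidase genes, 11 were tested and 0 passed in either direction. Their median log2 fold change was 0.07, and 4 of the 11 lay without overlap above WT, against 15.4% of all tested genes. Spi1, which encodes PU.1, the factor most tied to the subunit promoters, stood at 8.43, 7.82 and 9.15 RPKM in dnTCF4 replicates 1, 2 and 3, against 6.90, 8.93 and 8.79 RPKM in WT replicates 1, 2 and 3, and the groups overlapped. Irf8, which acts with PU.1 on the human CYBB promoter, averaged 5.23 ± 1.64 RPKM in dnTCF4 and 5.76 ± 1.25 RPKM in WT (SD, n = 3 each). Cebpb, among those 4, stood at 1.63, 1.35 and 1.88 RPKM in dnTCF4 replicates 1, 2 and 3, against 0.660, 0.452 and 0.687 RPKM in WT replicates 1, 2 and 3 (log2 fold change 0.71, limma adjusted p = 0.16). Its WT values were all under 1 RPKM, so it met the filter of 1 RPKM on average only through the dnTCF4 libraries. Irf2 averaged 29.2 ± 2.04 and 21.7 ± 3.22 RPKM and Elf1, an ETS factor, 113.8 ± 6.48 and 89.8 ± 8.86 RPKM, in dnTCF4 and WT, without overlap. Cebpe, a factor of late granulocyte maturation, lay at 0.267 to 0.494 RPKM in dnTCF4 and 0.104 to 0.345 RPKM in WT and was not tested.

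Genes that handle superoxide and peroxide numbered 27, of which 25 were tested and 0 passed in either direction (median log2 fold change 0.19). Of the 25, 3 lay without overlap above WT, against 15.4% of all tested genes. Nqo1, a quinone reductase, stood at 14.8, 15.9 and 19.5 RPKM in dnTCF4 replicates 1, 2 and 3, against 7.03, 10.5 and 10.2 RPKM in WT replicates 1, 2 and 3. Its groups did not overlap, and the log2 fold change was 0.80 (SE 0.21, limma adjusted p = 0.27). Sod2, the mitochondrial superoxide dismutase, averaged 6.93 ± 0.563 RPKM in dnTCF4 and 5.43 ± 0.455 RPKM in WT without overlap, and Gclm, which makes glutathione precursors, 7.08 ± 2.90 and 4.01 ± 1.45 RPKM with overlap (SD, n = 3 each). In this list dnTCF4 replicate 3 was the highest of the 6 libraries for 11 genes and the lowest for 10 of the 25 tested, against the lowest for 24.3% of all tested genes. It was lowest for Gpx1, a peroxidase of 57.2% GC, at 616.8, 604.5 and 247.2 RPKM in dnTCF4 replicates 1, 2 and 3, against 424.0, 1222 and 641.1 RPKM in WT replicates 1, 2 and 3. The same library was lowest for Cat, of 48.7% GC, at 32.1 RPKM, against 70.0 to 129.7 RPKM in the other libraries. The part of GC content in these values was not tested.

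Counts of higher and lower members depended on scaling. Of all tested genes, 68.5% had higher values in dnTCF4 in the deposited RPKM and 41.5% after median ratio scaling, which moved the median log2 fold change to -0.05. Of the 6 subunit genes, 3 (Cybb, Ncf1 and Rac1) had higher values and 3 lower ones under either scaling. The counts were 6 against 5 of 9 kinases, 12 against 4 of 16 Rac regulators, 8 against 5 of 11 transcription factors, 8 against 5 of 11 monocyte and macrophage markers and 18 against 10 of 25 peroxide genes, before and after that scaling.

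In the lists of markers of other cells, 0 genes passed, and of the 4 summed levels that of the B lineage and plasma cell list was the one whose groups did not overlap. The oxidase is most abundant in neutrophils and monocytes, and in bulk RNA fewer cells of a type and less RNA per cell cannot be told apart. The 13 neutrophil markers, of which 10 were tested, 9 had higher values and 0 passed, summed to 3078, 3732 and 7613 RPKM in dnTCF4 replicates 1, 2 and 3, against 622.1, 755.4 and 3130 RPKM in WT replicates 1, 2 and 3. S100a8, which encodes a subunit of the neutrophil protein calprotectin, stood at 1106, 1356 and 2948 RPKM in dnTCF4 replicates 1, 2 and 3, against 263.1, 232.4 and 1026 RPKM in WT replicates 1, 2 and 3, without overlap (log2 fold change 2.04, limma adjusted p = 0.33). With GC correction and replicate block together it passed (limma adjusted p = 0.024), as did S100a9 (0.03) and Camp (0.015). Beside these sums, Cybb was at 18.5, 23.6 and 28.9 RPKM in dnTCF4 replicates 1, 2 and 3, in the same order as the sum. In WT replicates 1, 2 and 3 it was at 12.3, 9.83 and 12.5 RPKM, not in the order of the sum. WT replicate 3 had a higher sum than dnTCF4 replicate 1 (3130 against 3078 RPKM) but a lower Cybb value (12.5 against 18.5 RPKM). Library dnTCF4 replicate 3 had the highest sum and the highest Cybb value. Csf3r, the receptor for granulocyte colony-stimulating factor, ran the other way, at 91.7, 89.6 and 44.7 RPKM in dnTCF4 replicates 1, 2 and 3, against 123.3, 111.7 and 119.6 RPKM in WT replicates 1, 2 and 3 (log2 fold change -0.71, limma adjusted p = 0.51). Mpo, the myeloperoxidase made by early granulocyte precursors, averaged 458.6 ± 269 RPKM in dnTCF4 and 894.5 ± 639 RPKM in WT (SD, n = 3 each), with overlap. The lineage-defining markers were not at 0, with Ly6g at 4.38 to 13.04 RPKM in dnTCF4 and 0.652 to 6.16 RPKM in WT.

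The 14 monocyte and macrophage markers, of which 11 were tested, 8 had higher values and 0 passed, summed to 566.7 to 688.4 RPKM in dnTCF4 and 570.3 to 608.7 RPKM in WT, and 4 of the 11 lay without overlap above WT, against 15.4% of all tested genes. Adgre1, which encodes the macrophage protein F4/80, averaged 2.90 ± 0.321 RPKM in dnTCF4 and 1.102 ± 0.320 RPKM in WT (SD, n = 3 each), and Cd68 96.3 ± 12.5 and 67.3 ± 3.08 RPKM. Other members had lower values in dnTCF4 with overlap, among them Csf1r, the macrophage growth factor receptor (4.96 ± 2.42 and 7.14 ± 3.43 RPKM, log2 fold change -0.45), and Ly6c2 (179.4 ± 42.0 and 227.6 ± 32.4 RPKM, log2 fold change -0.36). The 14 B lineage and plasma cell markers, of which 10 were tested, 8 had lower values and 0 passed, summed to 387.7 to 767.1 RPKM in dnTCF4 and 2632 to 7815 RPKM in WT, most of it from Jchain, the joining chain of secreted antibodies (503.5 ± 190 RPKM in dnTCF4 and 4214 ± 2905 RPKM in WT, SD, n = 3 each, limma adjusted p = 0.10). Of the 10 tested, 4 lay without overlap below WT, against 2.26% of all tested genes. With GC correction and replicate block together Jchain passed (limma adjusted p = 0.0043), as did the plasma cell receptor Tnfrsf17 (0.045). The 11 eosinophil, basophil and mast cell markers, of which 9 were tested, 5 had higher values and 0 passed, summed to 436.7 to 560.7 RPKM in dnTCF4 and 409.1 to 832.7 RPKM in WT. Of the 9, 3 lay below WT in dnTCF4 without overlap, against 2.26% of all tested genes. They were the basophil protease genes Prss34 (56.8 ± 8.77 and 162.1 ± 66.5 RPKM) and Mcpt8 (51.9 ± 11.0 and 105.1 ± 22.4 RPKM), and Fcer1a (11.7 ± 6.55 and 23.55 ± 3.93 RPKM). The mast cell protease gene Cpa3 (245.4 ± 74.7 and 161.4 ± 33.4 RPKM) and the eosinophil gene Ear2 (7.58 ± 4.22 and 3.00 ± 1.89 RPKM) had higher values in dnTCF4 with overlap. The part of these cells in the Cybb values was not tested.

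**Figure D4:**
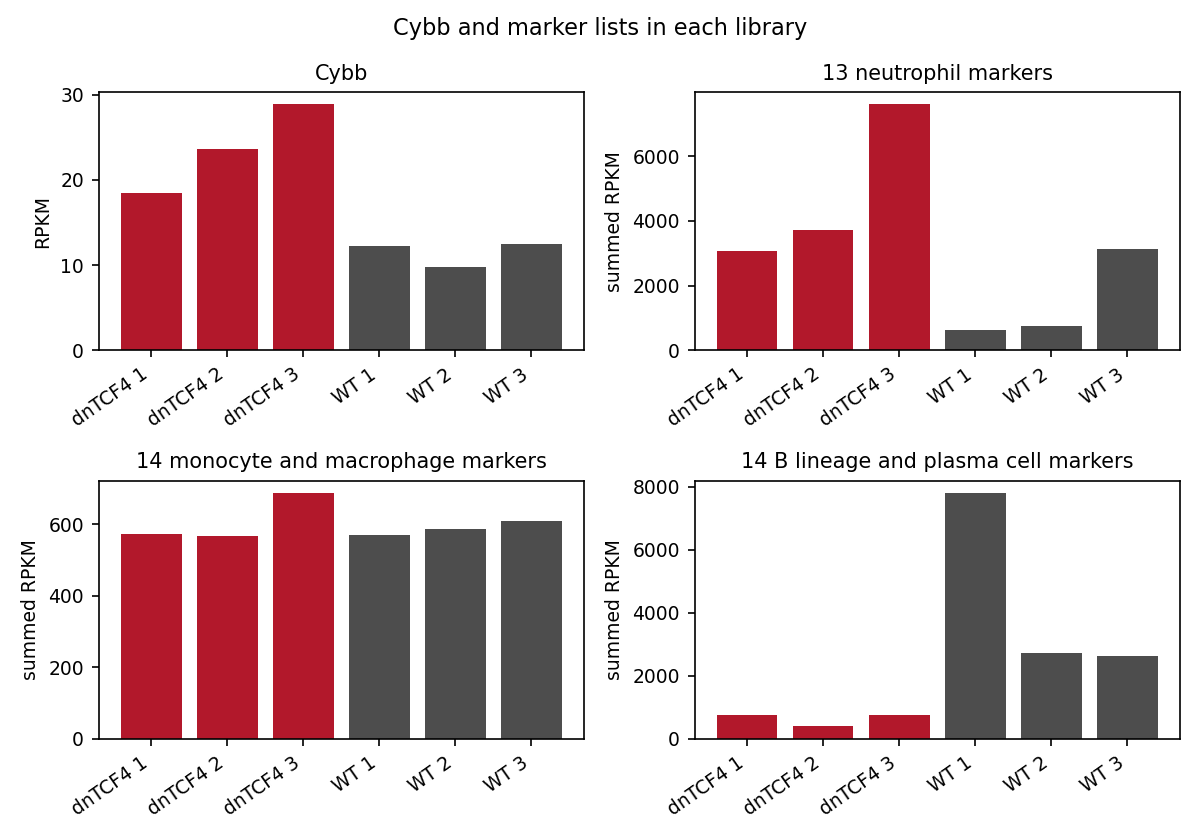
Cybb (RPKM) and the summed RPKM of 3 marker lists in each library, dnTCF4 replicates 1 to 3 and then WT replicates 1 to 3, with vertical axes from 0. The neutrophil sum runs from 3078 to 7613 RPKM in dnTCF4 and from 622.1 to 3130 RPKM in WT, and dnTCF4 replicate 3 is highest for both this sum and Cybb. WT replicate 3 exceeds dnTCF4 replicate 1 in this sum but not in Cybb.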

How the data were processed

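The authors deposited 1 table of RPKM values, scaled to gene length and library size. The tools named in the submitters' processing notes are edgeR, DESeq2, featureCounts and STAR, with GRCm38 and mm10 as builds; their roles, the annotation and how shared reads were counted were not stated there. For cDNA, the labels' protocols name a SMART-Seq v4 kit and the series' design text a SMARTer Universal kit; both name Nextera XT libraries.

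Columns were matched to samples by description. Coordinates and exon lengths are from GENCODE M21 (GRCm38), and 49730 symbols matched. RPKM times exon length fell on whole reads (tolerance 0.02) for 95.6% to 96.1% of low values, which gave each library's depth; Ncf4 and Rac2 gave no whole reads with these lengths. Genes averaging 1 RPKM or more entered limma 3.58.1 (R 4.3.3) as log2(RPKM + 1) (eBayes with trend, two-sided, genotype as the only term, Benjamini-Hochberg over all tested genes). Fold changes on this scale understate those of low genes. An exact test of 3 against 3 cannot go below p = 0.1. In a simulation of dnTCF4 against WT on 10003 genes, limma recovered 61 of 100 genes at 2-fold and 100 of 100 at 4-fold, with 6 false calls. The simulated counts had a fixed dispersion and no GC, sex or immunoglobulin differences between libraries. They therefore do not give the recovery in the real libraries, which had such differences. Overlaps of exons came from the annotation, and near-identical transcripts were sought with blastn 2.17.0.

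Replicate numbers may pair the samples. Across genes, the correlation between deviations of same-numbered libraries was 0.17 (number 1), 0.35 (number 2) and 0.30 (number 3), and the Y-linked reads fall in number 1 of both genotypes. Libraries of different number were not compared in this way, so these values do not establish pairing. The members and lists were chosen with earlier results of these data known. Named genes are the 6 members, up to 3 tested genes per list with the smallest p, Spi1, Irf8, Cebpe, Csf3r, Mpo, Kit and the 2 most alike genes per member; other names were chosen after their values were seen. Some genes that this rule names are not reported here. The GC correction, chosen after seeing the data, subtracted, per library, a loess surface (span 0.3) of deviations on GC content and level.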

Additional observations from a re-analysis of the deposited data

How the results depend on the processing

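None of the 6 subunit genes was called in any of the fits run, which varied the pseudocount, filter, scaling, immunoglobulin genes, block, weights, test, libraries and, chosen after seeing the data, a GC correction. Cybb kept its direction in all 18 alternatives (log2 fold change 0.74 to 1.17, limma or voom adjusted p 0.089 to 0.59), and Ncf1, Ncf4 and Rac1 kept theirs. Library weights, which gave dnTCF4 replicate 3 the lowest weight (0.273), turned Cyba to 0.10, Rac2 to 0.12 and Hvcn1 to 0.47. Leaving out 1 library gave log2 fold changes of 0.81 to 1.12 for Cybb, -0.97 to 0.40 for Cyba, 0.06 to 0.52 for Ncf1, -1.10 to -0.07 for Ncf4, 0.12 to 0.61 for Rac1, -0.59 to 0.16 for Rac2 and -0.37 to 0.53 for Hvcn1; the cause was not tested. The difference in Rac2 share was -2.06 to 0.0339 percentage points, in the Cyba to Cybb ratio -14.7 to -4.56 and in the Ncf4 to Ncf1 ratio -9.78 to -1.78. The whole-table count of 34 called genes was 49 with the replicate block, 169 with GC correction and replicate block, 86 with library weights, 18 after median ratio scaling, 13 by voom, 10 with replicates 2 and 3 only, 6 without a filter and 0 with immunoglobulin genes left out (666 at an unadjusted limma p under 0.05). Without 1 library it was 7 to 30: 22, 16 and 11 without dnTCF4 replicate 1, 2 or 3, and 7, 30 and 18 without WT replicate 1, 2 or 3. The replicate block changed no call of the 6 subunit genes, or of Hvcn1 and the genes named from the lists for their small p; it was not summarised for the other named genes. GC correction and replicate block together called S100a8, S100a9, Camp, Jchain and Tnfrsf17; library weights called Jchain and Tnfrsf17, and quantile scaling Jchain. The 4 subunit genes with recovered reads had 883 or more in each library; Ncf4 and Rac2 have no such value.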

Other observations

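Nox1, the colon-type catalytic homologue of Cybb, was below the mean needed for testing. It stood at 0.187, 0.0573 and 0.248 RPKM (39, 21 and 47 recovered reads) in dnTCF4 replicates 1, 2 and 3, against 0.643, 0.504 and 0.313 RPKM (135, 103 and 70 reads) in WT replicates 1, 2 and 3. The groups did not overlap and ran opposite to Cybb. It was named after its values were seen, and the difference was not tested.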
